A study of Mus musculus with 7 samples.

Results

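Accessible chromatin in mouse liver was examined at genes of hepatic glucose and fructose use, namely Slc2a2, Khk, Gckr, Pklr, Gys2 and Mlxipl. They are 6 of 22365 protein-coding genes, chosen by name for their role. Counted were the hotspots, stretches where cleavage tags of a nuclease cluster above background, that overlapped the gene body or the 20 kb on either side. These windows held 47 of the 60910 hotspots of the Benzonase list, 42 of the 57675 of the Cyanase list and 45 of the 72286 of the DNase I list. Hotspots joined by an overlap of at least 1 bp were merged across the lists into regions, which gave 50 of 94491 regions. No 2 windows overlapped.

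All material came from livers of male C57BL/6 mice aged 8 week, and the labels name no genetic change and no treatment of the animals. The labels list 3 Benzonase samples and 3 Cyanase samples, each digested with 0.25, 1 and 4 U of enzyme, and 1 DNase I sample. The header of the DNase I list reads pooled, and the paper states that its DNase I tags came from combined replicates. Liver powder ground from frozen pieces was digested with Benzonase or Cyanase, endonucleases that tolerate detergent, whereas DNase I, the classical probe of open chromatin, was applied to nuclei isolated from fresh tissue, so that enzyme and starting material cannot be told apart. The deposited result was 1 list per enzyme on the mm9 build, called on pooled tags, with the position of each hotspot and no tag number. The depth behind a hotspot is therefore unknown, and with no spread between replicates every comparison below is a description of these lists without a test.

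The liver handles dietary sugar with a set of proteins that many other tissues lack or use in other forms. Slc2a2 encodes the glucose transporter GLUT2, and Khk encodes ketohexokinase, which phosphorylates fructose to fructose 1-phosphate. Gckr encodes a nuclear regulatory protein of hepatic glucose phosphorylation that responds to fructose 1-phosphate. Pklr encodes the pyruvate kinase of liver and red blood cells, which closes glycolysis, and Gys2 encodes the liver glycogen synthase. Mlxipl encodes ChREBP, a transcription factor that carries the glucose response to lipogenic and glycolytic genes, Pklr among them, through pairs of E-box-like elements.

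The label was checked at the transcription start sites (TSSs) of marker genes. All 8 hepatocyte markers, Alb and Apob among them, had a TSS inside a hotspot of each list, and none of 4 markers of other tissues did in any list. Of 4 Kupffer cell markers, 4 had a TSS in a DNase I hotspot, 1 in a Benzonase hotspot and 1 in a Cyanase hotspot. Of 3 markers each, the counts for Benzonase, Cyanase and DNase I were 1, 1 and 0 for sinusoidal endothelium, 1, 2 and 0 for stellate cells, and 2, 1 and 1 for bile duct. Neither preparation separated the cell types of the liver, so a hotspot present in few cells and one weakly open in many cannot be told apart, and the part of other cell types in the differences below was not tested.

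The 200 bases before the starts of 5 of the genes are shown first, because all 6 starts lay inside or at the edge of accessible chromatin in each list. They were read 5′ to 3′ on the gene's strand from the mm9 genome with GENCODE M1 gene models. Capitals mark exact matches, on either strand, to CACGTG (E-box), CAAAGTCCA (HNF4A), GTTAATNAT (HNF1), TTGCNNAA (C/EBP), TGTTTAC (FOXA) and GGGCGG (Sp1). The positions were chr3:28596625-28596824 (plus strand) for Slc2a2, chr5:31223729-31223928 (plus) for Khk, chr5:31599754-31599953 (plus) for Gckr, chr3:88939864-88940063 (plus) for Pklr and chr5:135582561-135582760 (plus) for Mlxipl.
Slc2a2: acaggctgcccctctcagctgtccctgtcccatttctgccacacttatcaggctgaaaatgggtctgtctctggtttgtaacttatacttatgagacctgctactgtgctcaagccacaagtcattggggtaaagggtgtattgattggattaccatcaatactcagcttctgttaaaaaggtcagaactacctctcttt
Khk: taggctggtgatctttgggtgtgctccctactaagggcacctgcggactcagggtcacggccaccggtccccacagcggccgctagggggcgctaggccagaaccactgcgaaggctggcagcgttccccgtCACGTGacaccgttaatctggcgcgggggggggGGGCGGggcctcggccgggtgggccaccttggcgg
Gckr: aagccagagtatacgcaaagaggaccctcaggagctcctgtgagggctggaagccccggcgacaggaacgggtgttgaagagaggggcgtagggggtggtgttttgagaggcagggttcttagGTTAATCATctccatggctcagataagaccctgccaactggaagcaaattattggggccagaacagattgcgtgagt
Pklr: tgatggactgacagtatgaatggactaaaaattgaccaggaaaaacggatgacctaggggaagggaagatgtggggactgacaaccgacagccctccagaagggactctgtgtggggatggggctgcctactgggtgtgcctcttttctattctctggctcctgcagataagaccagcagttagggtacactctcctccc
Mlxipl: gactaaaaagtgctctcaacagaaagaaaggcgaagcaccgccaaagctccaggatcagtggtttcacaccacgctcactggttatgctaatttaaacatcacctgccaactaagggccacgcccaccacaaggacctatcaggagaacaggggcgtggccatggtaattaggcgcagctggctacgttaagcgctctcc
The sequences differed widely in composition. The Khk sequence had 70.5% GC and 17 CpG dinucleotides, while the Slc2a2 sequence had 45.0% GC and 0, and the Pklr sequence had 2. The hotspots of all 3 lists covered all 200 bases of each sequence except that of Pklr, of which Benzonase covered 0, Cyanase 26 and DNase I 40 bases. Matches were few: an E-box and an Sp1 match before Khk, and an HNF1 match before Gckr. Of all 22365 promoters of this length, 5.58% held the E-box, 38.0% the Sp1 match and 0.554% the HNF1 match. The HNF4A letters (0.335% of promoters), the C/EBP letters (7.20%) and the FOXA letters (2.15%) occurred in none of the sequences shown. A match is a description of the letters and not a bound site.

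Further stretches are shown from the Pklr and Mlxipl windows. The first precedes the start of the shorter Pklr transcript, Pklr-002 (chr3:88940294-88940493, plus strand), and capitals mark a pair of E-box-like elements, CACGNG and CNCGNG spaced by 5 bases, of which CACGTG itself is one form. The second is the centre of the region farthest upstream of Mlxipl (chr5:135565593-135565792, plus strand), with an E-box and an Sp1 match in capitals. The third precedes the start of Hcn3 (chr3:88964119-88964318, minus strand), a neighbour in the Pklr window whose start was open to Benzonase and Cyanase alone, and its capitals mark 4 Sp1 matches that share bases with one another. This paired pattern was searched on both strands, and was added to the search after the hotspots had been seen.
Pklr-002: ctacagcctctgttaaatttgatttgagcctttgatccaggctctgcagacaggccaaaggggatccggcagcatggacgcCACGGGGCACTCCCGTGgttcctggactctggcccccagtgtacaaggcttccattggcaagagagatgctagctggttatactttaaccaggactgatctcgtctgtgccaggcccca
Mlxipl, far upstream: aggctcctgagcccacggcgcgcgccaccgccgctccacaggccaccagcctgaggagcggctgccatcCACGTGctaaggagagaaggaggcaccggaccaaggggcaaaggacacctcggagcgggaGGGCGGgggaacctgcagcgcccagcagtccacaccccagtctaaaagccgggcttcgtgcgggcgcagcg
Hcn3: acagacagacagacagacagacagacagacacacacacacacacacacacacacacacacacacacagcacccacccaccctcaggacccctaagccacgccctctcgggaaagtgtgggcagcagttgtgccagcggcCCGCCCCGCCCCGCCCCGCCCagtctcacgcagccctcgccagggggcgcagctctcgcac

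All 6 genes had a TSS of a protein-coding transcript inside a hotspot of each list. Over all protein-coding genes this held for 57.4% in the Benzonase list, 55.7% in the Cyanase list and 47.4% in the DNase I list, and for 46.1% in all 3 lists at once. In the windows, 35 of 50 regions were found by all 3 nucleases (70.0%, 95% Wilson interval 56.2 to 80.9, counting error only), whereas 44.3% of the 70910 regions within 20 kb of a protein-coding gene were. DNase I unique regions, found by DNase I alone, numbered 5 of 50 (10%, interval 4.35 to 21.4) against 26.2% near genes in general. Benzonase-Cyanase unique regions, found by either or both of these enzymes and not by DNase I, numbered 8 of 50 (16.0%, interval 8.34 to 28.5) against 24.1%. Of these 8, Benzonase alone found 4, Cyanase alone 2 and both 2. These are 8%, 4% and 4% of the 50 regions, against 7.88%, 5.42% and 10.8% near genes in general. The genes were chosen with earlier results of these data known, so these shares describe them and support nothing further. The last 2 regions were common to Benzonase and DNase I (4%, against 3.49% near genes in general). No region was common to Cyanase and DNase I alone, a combination that made up 1.92% near genes in general.

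The unique regions fell in 3 of the 6 windows. In the Gckr, Gys2 and Mlxipl windows every region, 3, 5 and 8 respectively, was found by all 3 nucleases. The Pklr window held 4 shared regions, 2 DNase I unique and 3 Benzonase-Cyanase unique regions. The Slc2a2 window held 8, 0 and 3 of these, with both regions common to Benzonase and DNase I, and the Khk window held 7, 3 and 2. The counts of unique regions depended on how sharing was defined. With an overlap of 50% of both hotspots there were 10 DNase I unique and 15 Benzonase-Cyanase unique regions among 60. Without the narrowest hotspots, those below the first quartile of width in each list (482, 489 and 537 bp), there were 2 and 4 among 41.

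**Figure D1:**
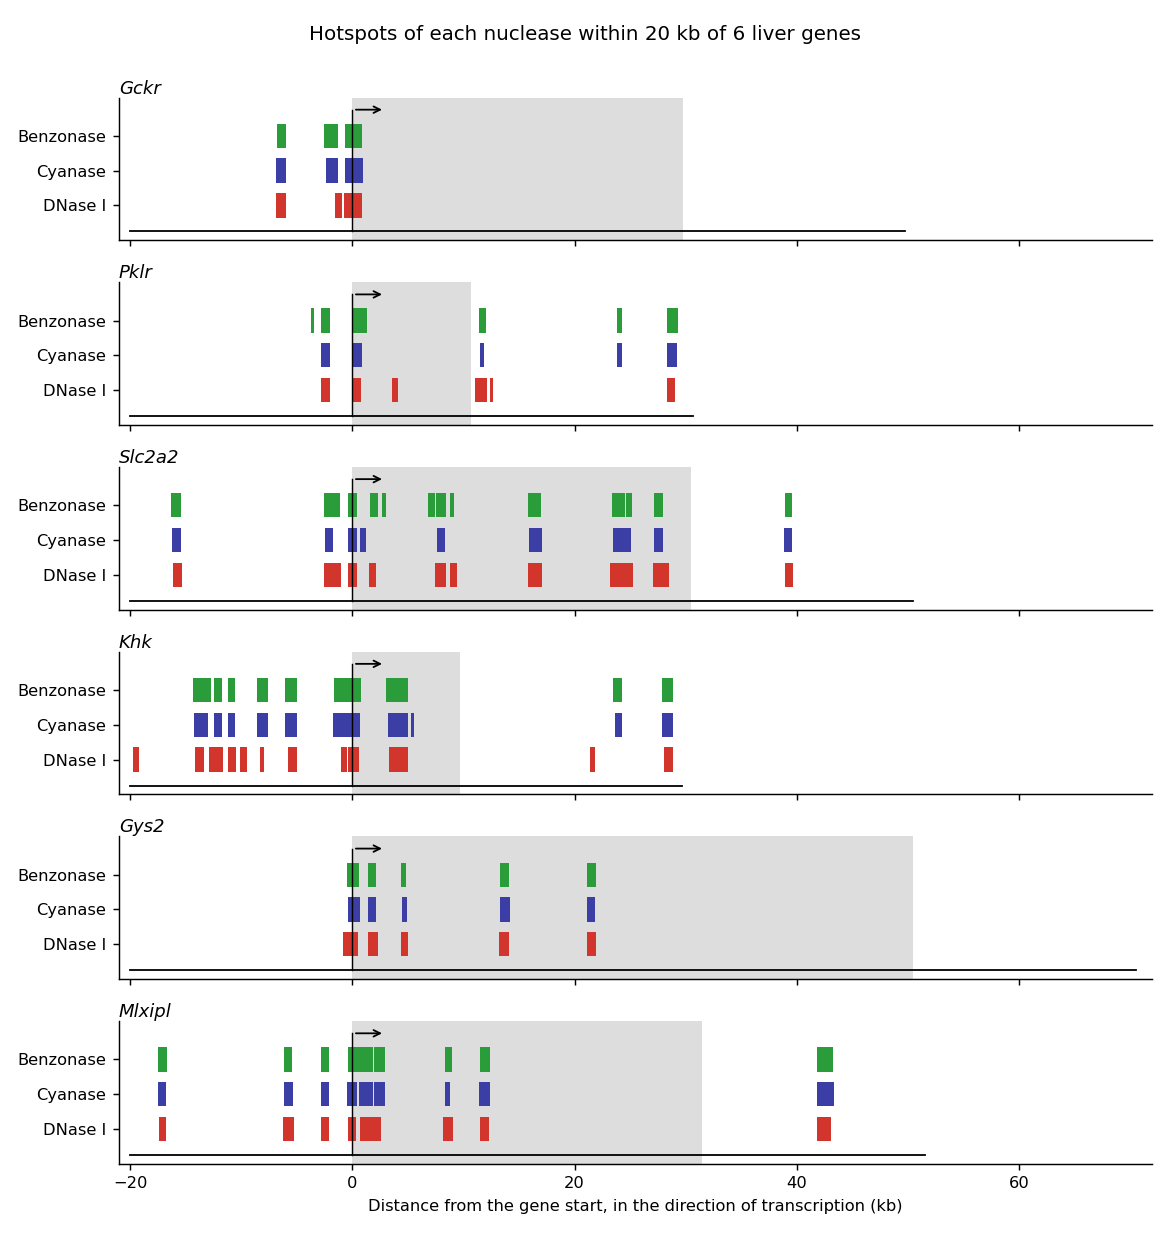
Hotspots of Benzonase (green), Cyanase (blue) and DNase I (red) in the windows of the 6 genes, by distance from the gene start in kb along the direction of transcription. The gray band is the gene body, the arrow marks the gene start, and the black line spans the window. All 3 lists have a hotspot at every gene start, the Gckr window holds 3 hotspots per list, all at or before the start, and single-list hotspots appear only in the Pklr, Slc2a2 and Khk rows.

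The windows differed more from each other in hotspot density than the nucleases did within a window. The Khk window was the densest, with 10 Benzonase, 10 Cyanase and 12 DNase I hotspots in 49.7 kb. That is 2.01, 2.01 and 2.41 hotspots per 10 kb, above 98.7%, 99.0% and 99.4% of all protein-coding genes. The Slc2a2 window followed with 13, 10 and 11 hotspots in 70.5 kb (1.85, 1.42 and 1.56 per 10 kb). The Pklr window held 7, 5 and 6 in 50.6 kb (1.38, 0.987 and 1.18), and the Mlxipl window 9, 9 and 8 in 71.5 kb (1.26, 1.26 and 1.12). Gys2 had 5 in each list over 90.5 kb (0.553 per 10 kb) and Gckr 3 in each over 69.7 kb (0.430). The medians of all genes were 0.383, 0.361 and 0.424 per 10 kb, so Gckr stood near the middle, at the percentiles 54.3, 56.5 and 50.5, and Gys2 at 64.2, 66.1 and 59.8.

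**Figure D2:**
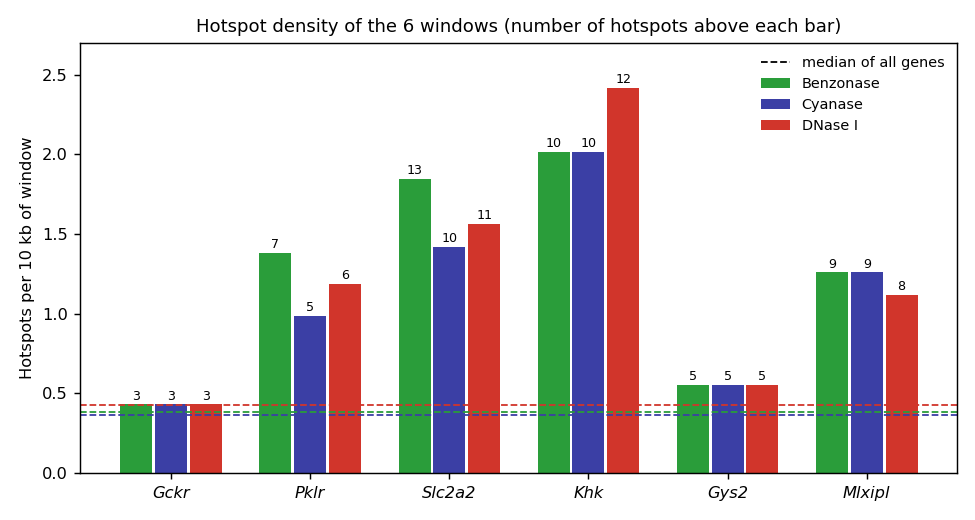
Hotspots per 10 kb of window for each gene and list, with the number of hotspots above each bar. Dashed lines are the medians over all 22365 protein-coding genes in the color of the list. Khk bars reach 2.01 to 2.41, and Gckr bars (0.430) stand just above the dashed lines.

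The transporter gene Slc2a2 (ENSMUSG00000027690.7, chr3:28596825-28627278, plus strand, 11 exons) carried most of its accessible chromatin inside the gene, with 10 Benzonase, 7 Cyanase and 7 DNase I hotspots overlapping the gene body. Its start was covered by hotspots of nearly the same bounds, 28596427-28597292 for Benzonase, 28596433-28597237 for Cyanase and 28596455-28597288 for DNase I. Upstream, a region 15.8 kb before the start (879, 745 and 795 bp wide) and one 1.8 kb before it were found by all 3. The nearer one was a single hotspot of 1396 bp for Benzonase and of 749 bp for Cyanase, but 2 adjoining hotspots of 782 and 657 bp for DNase I.

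The nucleases diverged most in the introns of Slc2a2 next to the start. Within intron 1, Cyanase alone had a hotspot 0.9 kb after the start (28597513-28598029, 517 bp). Benzonase and DNase I shared a region 1.9 kb after the start (684 and 608 bp), and Benzonase alone had hotspots at 2.9 kb (28599525-28599855, 331 bp) and 7.1 kb (28603641-28604281, 641 bp). The latter ended on the base before the DNase I hotspot over exon 2 began, at 28604282, so that the label of unique rests there on a single base. Intron 2 held a second region of Benzonase (336 bp) and DNase I (594 bp) without Cyanase. All 3 lists met again at exon 2 (873, 701 and 1000 bp), exon 4 (1187, 1167 and 1252 bp), exon 8, in intron 8 and 8399 bp past the gene end (670, 709 and 785 bp). At exon 8, DNase I gave 1 hotspot of 2090 bp where Benzonase gave 2 (1228 and 585 bp) and Cyanase gave 2 (1107 and 519 bp). The header of the Benzonase list reads unmerged, and those of the Cyanase and DNase I lists do not say. Whether 2 hotspots against 1 mark a gap in accessibility or follow from how a list was made was not tested. In intron 8, 27.8 kb after the start, the Benzonase (814 bp) and Cyanase (807 bp) hotspots stayed within the intron, and the DNase I hotspot (1381 bp) ran on over exon 9.

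Several regions of Slc2a2 held E-box letters. CACGTG occurred 1747 bp before the start, at 1873 and 2049 bp in the intron 1 region shared by Benzonase and DNase I, at 6950 bp in the Benzonase hotspot beside exon 2, at 8017 bp in the exon 2 region, and at 24001 and 27456 bp. The region 1.9 kb after the start held the only HNF4A match of the 50 regions as well, CAAAGTCCA at 1920 bp. The matches at 2049 and 8017 bp were each part of such a pair of E-box-like elements, CTCGGGCTTTGCACGTG at 2038 bp and CACGTGAAAGACACGGG at 8017 bp. The first of these regions was missing from the Cyanase list, and the second was in all 3.

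Khk (ENSMUSG00000029162.9, chr5:31223929-31233619, plus strand, 8 exons) lies among closely spaced genes, and most of its hotspots lay outside the gene. The region over its start was one of the widest, a single hotspot of 2446 bp for Benzonase (31222245-31224690) and 2423 bp for Cyanase (31222226-31224648). DNase I called 2 narrower hotspots there, 528 bp (31222913-31223440) and 1021 bp (31223510-31224530), and the second held the starts of Khk-001, Khk-002 and Khk-003. The E-box of the printed sequence lay 68 bp before the start. Inside the gene, a region of exon 2 and intron 2 was found by all 3, as 2 Benzonase hotspots (1282 and 707 bp) and 1 hotspot each of Cyanase (1848 bp) and DNase I (1721 bp), the last within the intron. Cyanase alone had a hotspot over exon 3, of 251 bp, which is the smallest width in its list.

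Around Khk, DNase I alone had hotspots 19.5 kb and 9.8 kb before the start (511 and 621 bp) and 21.6 kb after it (477 bp), none of them at an annotated TSS. Benzonase (774 bp) and Cyanase (682 bp) alone had a region 23.9 kb after the start, at the TSS of Cgref1. The remaining neighbors with a TSS in hotspots of all 3 lists were Ost4, Emilin1 and Abhd1, and the start of a further transcript, Emilin1-004, lay in the Benzonase and Cyanase hotspots over the Khk start. At the Emilin1 start the DNase I hotspot was 375 bp wide, against 935 bp for Benzonase and 963 bp for Cyanase, and it held 1 of the 3 Emilin1 transcript starts that the others held. No list had a hotspot over the 15.8 kb that followed the exon 3 hotspot, which include the end of the gene.

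Gckr (ENSMUSG00000059434.5, chr5:31599954-31629673, plus strand, 19 exons) had 3 hotspots in each list. Its start hotspot measured 1539 bp for Benzonase (31599318-31600856), 1588 bp for Cyanase (31599302-31600889) and 1601 bp for DNase I (31599187-31600787), and 1470 bp were common to the 3. It held an HNF1 match, GTTAATCAT, 77 bp before the start. The other 2 regions of the window lay at the starts of the neighbors Ift172, 6.4 kb upstream, and Fndc4, 1.7 kb upstream. In the Fndc4 region the DNase I hotspot (672 bp) began 952 bp closer to Gckr than the Benzonase hotspot (1257 bp), and only 264 bp were common to all 3 lists. The Fndc4 starts lay inside the Benzonase and Cyanase hotspots and outside the DNase I hotspot. From 31600890 to the end of the window, 48.8 kb that include nearly the whole Gckr gene, no list had a hotspot. This gap was 70.0% of the window, and the longest gap of a window was 48.0% in the median over all genes.

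Pklr (ENSMUSG00000041237.6, chr3:88940064-88950706, plus strand, 11 exons) has a pair of promoters, an upstream one used in red blood cells and a downstream one used in liver. In the annotation, Pklr-001 starts at 88940064 and encodes 574 codons, the length of the red cell form, and Pklr-002 starts at 88940494 and encodes 543, the length of the liver form. A single region covered both starts, 842 bp for Benzonase (88940065-88940906), 898 bp for Cyanase (88940038-88940935) and 833 bp for DNase I (88940024-88940856). All 3 hotspots thus began at the upstream start, to within 40 bp, and ran over the downstream one. The Benzonase hotspot began 1 bp after the Pklr-001 start, a distance that depends on whether positions in the list are counted from 0 or 1. The 200 bases before Pklr-002 were covered in full by each list, and held the paired elements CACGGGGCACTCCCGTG 311 bp after the Pklr-001 start. The same pattern occurred in 0.340% of the promoters of all genes and in the central 200 bases of 0.119% of all regions.

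Beyond the start, the lists around Pklr differed at 5 of the other 8 regions. Benzonase alone had a hotspot of 281 bp, 3.5 kb before the start, and one of 442 bp over exon 2 (88940937-88941378). The second began directly behind the Cyanase hotspot of the start, which ended at 88940935, and was joined to it when hotspots within 150 bp were merged. DNase I alone had a hotspot of 529 bp in intron 2 (88943610-88944138) and one of 303 bp, 1727 bp past the gene end. The 200 bases at the centre of the intron 2 hotspot, chr3:88943774-88943973 on the plus strand, had 46.0% GC and held a single Sp1 match.
Pklr, intron 2: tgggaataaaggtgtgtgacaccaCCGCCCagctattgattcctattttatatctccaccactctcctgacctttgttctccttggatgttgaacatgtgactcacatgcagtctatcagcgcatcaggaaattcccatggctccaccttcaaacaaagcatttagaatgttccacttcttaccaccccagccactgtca
A region 359 bp past the gene end was common to all lists but varied in width more than most, with 627 bp for Benzonase, 301 bp for Cyanase and 1128 bp for DNase I. The region 2.4 kb before the start varied little, with 787, 758 and 827 bp, and held an HNF1 match 2327 bp before the start. Farther downstream, the Hcn3 start was in a Benzonase (443 bp) and a Cyanase (450 bp) hotspot but in no DNase I hotspot, and the Clk2 start was in hotspots of all 3 lists (997, 923 and 715 bp).

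Gys2 (ENSMUSG00000030244.7, chr6:142371133-142421629, minus strand, 17 exons) had 5 regions, and each was a single hotspot in each list. They lay at the start and 1.9, 4.7, 13.7 and 21.5 kb into the gene, of which those at 1.9 and 4.7 kb were in intron 1, that at 13.7 kb overlapped exon 4 and that at 21.5 kb overlapped exon 8. At the start the hotspots measured 1130 bp for Benzonase (142421017-142422146), 1017 bp for Cyanase (142420972-142421988) and 1389 bp for DNase I (142421119-142422507), the last reaching 878 bp upstream of the start and the Benzonase hotspot 517 bp. In intron 1 the widths were 683, 729 and 855 bp at 1.9 kb, and 409, 502 and 647 bp at 4.7 kb. Around exon 4 they were 854, 870 and 849 bp, and around exon 8 they were 806, 745 and 822 bp. The region at 1.9 kb held 2 E-boxes, at 1796 and 1805 bp, and the region at exon 8 held 3, at 21376, 21407 and 21608 bp. From there to the end of the window, over 48.6 kb that include the larger part of the gene, no list had a hotspot.

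Mlxipl (ENSMUSG00000005373.6, chr5:135582761-135614254, plus strand, 17 exons) had 8 regions, each found by all 3 lists. The start was covered by 1055 bp for Benzonase (135582339-135583393), 896 bp for Cyanase (135582328-135583223) and 786 bp for DNase I (135582335-135583120). Next to it, in intron 1, DNase I had 1 hotspot of 1955 bp, where Benzonase had 2 (1209 and 948 bp) and Cyanase had 2 (1197 and 986 bp). In intron 2 lay regions 8.6 kb (688, 474 and 895 bp) and 11.9 kb (951, 939 and 788 bp) after the start. Upstream regions lay at 2.4 kb (692, 726 and 777 bp), 5.8 kb (792, 838 and 974 bp) and 17.1 kb (789, 737 and 601 bp). The region at 42.6 kb held the start of Tbl2 (1471, 1563 and 1289 bp).

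The region 17.1 kb before Mlxipl (chr5:135565299-135566087) stood out in composition. It had 64.3% GC, against 49.5% in the 5 kb on either side, and was the most GC-rich of the regions common to DNase I and another list. No TSS of the M1 annotation lay in it. Mlxipl is known to have an alternative first exon upstream of the main one, which gives the shorter ChREBP-beta form, and whether this region is that promoter was not tested. Its E-box lay 17099 bp before the annotated gene start, and it was the only E-box in the 4 regions at or before the start. The start region itself held no E-box, and the intron 1 region held 1, at 1981 bp.

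Across the 50 regions, 7 (14.0%) held CACGTG in their central 200 bases, against 4.27% of all regions. Of the others, Sp1 letters were in the centre of 10 (20%, against 12.3%), C/EBP letters in 3 (6.00%, against 13.1%), FOXA letters in 3 (6.00%, against 4.87%), and HNF4A and HNF1 letters in 1 each (2%, against 1.28% and 1.42%). The E-box centres belonged to Slc2a2 (3 regions), Gys2 (2 regions), the far upstream region of Mlxipl and the Cgref1 start. The paired elements were in the centre of 1 region, at exon 2 of Slc2a2. The windows have many regions each, so these counts are not counts of independent genes.

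Hotspot widths were alike in the 3 lists. The median was 842 bp for the 47 Benzonase hotspots, 822.5 bp for the 42 Cyanase hotspots and 812 bp for the 45 DNase I hotspots, and each was above the median of its whole list (652, 641 and 649 bp). Hotspots of regions found by all lists were wider, with medians of 877, 859.5 and 833.5 bp, than the remaining ones, with 442.5 (n = 8), 483.5 (n = 4) and 529 bp (n = 7). A wider hotspot overlaps others more easily, so this contrast is not independent of how regions were joined. It was not particular to these windows. Over the genome, merged regions had median widths of 863 bp if common, 549 bp if DNase I unique and 453 bp if Benzonase-Cyanase unique. Of the 35 regions shared by all lists, 29 had 1 hotspot in each, and in 6 a list had more than 1.

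In these 29 regions the bounds of Cyanase lay closer to those of Benzonase than the bounds of DNase I did. The median shift of a bound was 30 bp for Cyanase, with 50 of 58 bounds within 100 bp and a largest shift of 222 bp at the region behind Pklr. For DNase I it was 63 bp, with 37 of 58 bounds within 100 bp and a largest shift of 952 bp at Fndc4. The same medians over 33922 such regions of the genome were 33 and 71 bp, so the 6 windows were near the general pattern. DNase I gave the widest hotspot in 16 of the 29 regions, Benzonase in 8 and Cyanase in 5. The DNase I hotspot was wider than the Benzonase hotspot in 16 of 29, against 46.9% of the 33922 regions. The Cyanase hotspot was wider than the Benzonase hotspot in 12 of 29, against 31.3%.

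Which list was wider went with the base composition of the merged region. Of 14 regions with GC content under 50%, the DNase I hotspot was wider than the Benzonase hotspot in 11, and of 15 regions with 50% or more it was wider in 5. Genome-wide the shares were 69.3% of 18680 and 19.4% of 15242 regions. Slc2a2 and Gys2 made up most of the first set, for instance the region of Slc2a2 at 27.8 kb (46.4% GC, 1381 bp for DNase I and 814 bp for Benzonase) and intron 1 of Gys2 at 4.7 kb (44.0% GC, 647 and 409 bp). The regions at Emilin1 (60.7% GC, 375 and 935 bp) and Fndc4 (58.5% GC, 672 and 1257 bp) belonged to the second. The region behind Pklr went the other way, with 60.3% GC and the wider hotspot in DNase I. For Cyanase the counts wider than Benzonase were 7 of 14 and 5 of 15, against 35.6% and 26.2% genome-wide. This split at 50% was chosen after the widths had been seen. The hotspots themselves set the bounds of a merged region, so its GC content is not independent of their widths. At Fndc4, for instance, the Benzonase hotspot had 63.6% GC and the DNase I hotspot 45.4%.

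**Figure D3:**
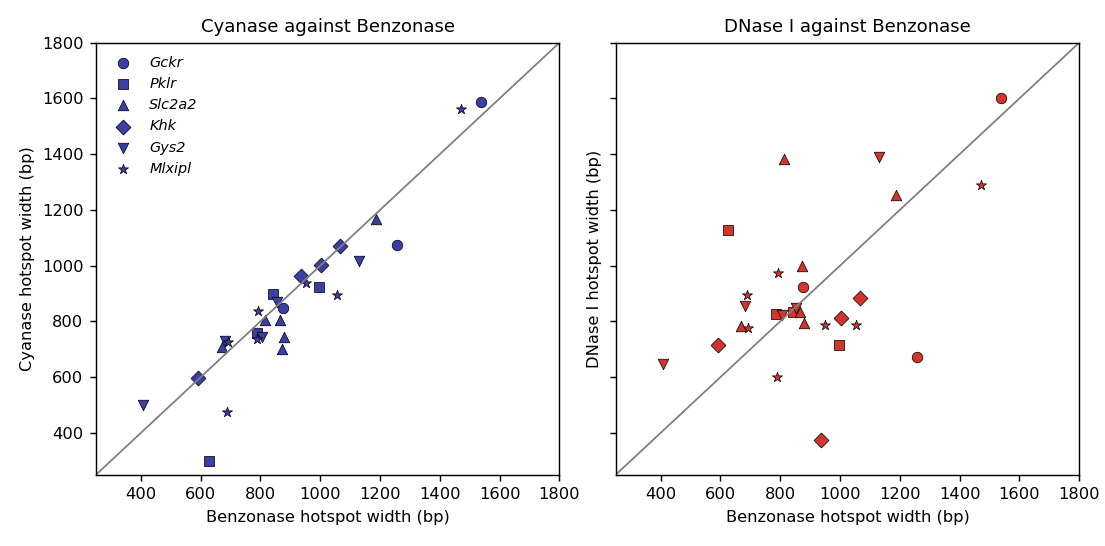
Widths in bp of the 29 regions with 1 hotspot in each list, Cyanase (left) and DNase I (right) against Benzonase, with a symbol per gene window and the line of equal width. Cyanase points follow the line, while DNase I points scatter to both sides, from Emilin1 in the Khk window (375 against 935 bp) to the region 27.8 kb after the Slc2a2 start (1381 against 814 bp).

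GC content also differed between the unique regions of the 6 windows, with overlapping ranges. It averaged 48.5% ± 5.90 (SD, n = 5) in DNase I unique regions, 50.7% ± 6.29 (SD, n = 37) in common regions and 55.9% ± 9.80 (SD, n = 8) in Benzonase-Cyanase unique regions. The means of all regions of these classes were 42.3%, 49.5% and 54.7%. The DNase I unique regions ranged from 43.4% to 58.4%, the highest being the region 1727 bp behind Pklr, and only 2 of 5 exceeded the 5 kb flanks. The Benzonase-Cyanase unique regions ranged from 44.4% to 72.5%. The upper end was the Hcn3 start (72.5%, flanks 46.9%), followed by the Cgref1 start (61.8%), and the lower end was formed by the 3 intron 1 hotspots of Slc2a2 (44.4%, 45.1% and 47.1%). Both Benzonase-Cyanase unique regions with an annotated TSS were thus GC-rich, and none of the 5 DNase I unique regions held a TSS. Of the 16 regions with a TSS, 14 were found by all 3 lists, and of the 34 without one, 21 were. In 13 of the 14 a TSS lay inside a hotspot of each list, the exception being Fndc4. The shares over all regions with and without a TSS are not given here, so these TSS counts only describe the 6 windows.

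**Figure D4:**
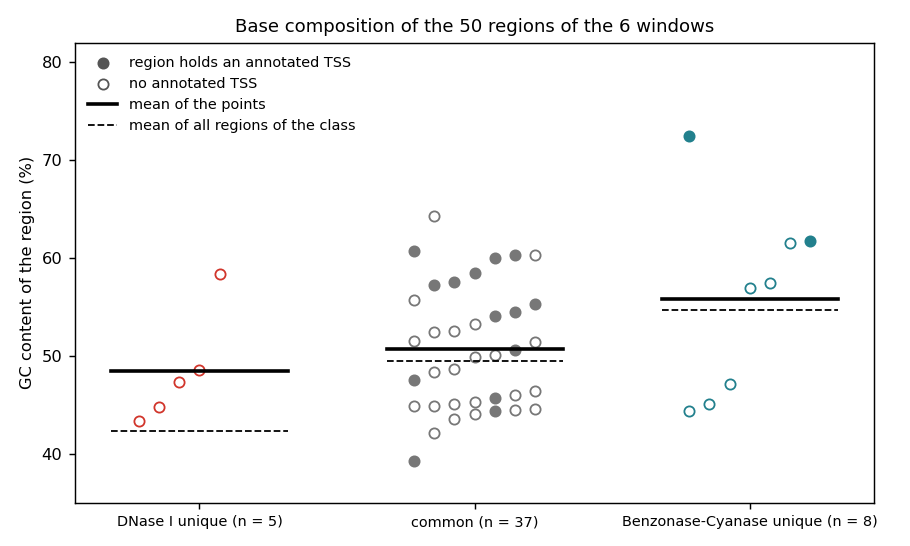
GC content in percent of each of the 50 regions by class, filled where the region holds an annotated TSS. Thick lines are the means of the points (48.5%, 50.7% and 55.9%) and dashed lines the means of all regions of the class in the genome. The Hcn3 start is the highest point, at 72.5%, and the classes overlap.

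Other genes of the same pathways were counted as a list of 38, all of which were found in the annotation. A TSS lay in a Benzonase hotspot for 36, in a Cyanase hotspot for 36 and in a DNase I hotspot for 35, and 34 of 38 (89.5%) had a TSS in all 3 lists, where 46.1% of all protein-coding genes did. The set comprised all 4 genes of fructose and polyol use, all 10 genes of glycogen metabolism, all 4 ChREBP partners and targets, 11 of 12 glycolytic genes and 5 of 8 genes of glucose entry and phosphorylation. Slc2a5, the intestinal fructose transporter, had no hotspot at its TSS in any list, and the nearest was 8499 bp away. Hk3, a hexokinase of blood leukocytes, had 3 of its 4 TSSs in a DNase I hotspot, with Benzonase 1227 bp and Cyanase 1287 bp away from the nearest.

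Slc2a4, the insulin-dependent transporter of muscle and fat, had its TSS in a Benzonase and a Cyanase hotspot, and the nearest DNase I hotspot was 479 bp away. Pfkp, the platelet form of phosphofructokinase, had 2 neighboring TSSs in Benzonase and Cyanase hotspots, 12699 and 12751 bp from DNase I. Another of its starts, Pfkp-006, lay 10323 bp from Benzonase, 651 bp from Cyanase and 624 bp from DNase I. The GC content within 250 bp of the starts covered by Benzonase and Cyanase was 58.5% for Slc2a4 and 64.9% and 62.7% for Pfkp. It was 48.7% at the start of Hk3-001. It was 58.1% at the start of Slc2a5, which no list covered.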

How the data were processed

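Livers of C57BL/6 mice were digested with Benzonase, Cyanase or DNase I. Per the paper's methods and the labels, the authors used Eland or Bowtie for alignment to mm9, combined all tags from an enzyme, and identified hotspots with the false discovery rate set to 0%. The deposited lists hold 3 columns (chromosome, start, end), with 0 columns of other samples, and no tag number, so the depth per hotspot is unknown. The header of the Benzonase list reads input adjusted and unmerged, and those of the Cyanase and DNase I lists say neither. The methods also apply a threshold on tag density, which the headers leave out, and each list is longer than the hotspot set counted in the paper.

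Starts were read as counted from 0 and are printed from 1. Gene models and sequence came from GENCODE M1 on NCBIM37 (mm9). Exon numbers are those of Gckr-201, Pklr-001, Slc2a2-001, Khk-001, Gys2-001 and Mlxipl-001. Hotspots overlapping by at least 1 bp were merged into regions. Motifs were exact matches on both strands in 200 bases. GC flanks were 5 kb. Python 3.11.15, numpy 2.4.6, pandas 2.3.3, scipy 1.17.1 and matplotlib 3.10.9 were used. Merging was tested on simulated lists. Genes named are the 6 members, neighbors with a TSS in a hotspot of a window, pathway genes at which the lists differed or had no hotspot, and the pathway gene with the most similar window. The marker examples were named beyond that rule, and some items are not reported here. The members and lists were chosen with earlier results of these data known. No test was run, because each list was pooled. Alternatives were other flanks, overlaps, joining distances, TSS definitions, width limits and the central 150 bp for GC content.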

Additional observations from a re-analysis of the deposited data

How the results depend on the processing

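Among the values recomputed under another setting, 37 were labeled as the same and 17 as moved. These labels did not follow the size of the change. The median Benzonase width was labeled as moved at 848 bp without flanks, against 842 bp. None of the recomputed values left any of the 6 genes without a hotspot at its TSS. Flanks of 50 kb gave 70 Benzonase, 64 Cyanase and 64 DNase I hotspots, against 47, 42 and 45 in the main setting. Of these, only the Cyanase count was labeled as moved. The total of regions, 50 in the main setting, changed as well. It was 60 with an overlap of 50% of both hotspots, 39 with flanks of 10 kb, 75 with flanks of 50 kb and 41 without narrow hotspots. DNase I unique regions numbered 10, 3, 8 and 2 in these settings. Benzonase-Cyanase unique regions numbered 15 of 60 with the 50% overlap, 15 of 75 with flanks of 50 kb and 4 of 41 without narrow hotspots. The share of regions in all 3 lists ranged from 53.3% (50% overlap) to 75.6% (without narrow hotspots). Median widths in regions of all 3 lists were 877 bp for Benzonase, 859.5 bp for Cyanase and 833.5 bp for DNase I, and without flanks they were 848, 883 and 855 bp, which changes their order. In the central 150 bp the mean GC content was 53.59% in common, 48.93% in DNase I unique and 59.0% in Benzonase-Cyanase unique regions. Leaving out TSSs of transcripts whose 5′ end was not found, an alternative chosen after seeing the data, kept 6 of 6 genes in each list. With hotspots counted within 1 kb of a TSS, the pathway genes numbered 36 for Benzonase, 36 for Cyanase and 37 for DNase I. No replicate could be left out and no paired analysis was possible because each list was called on pooled tags. Depth was not among the columns, so a missing hotspot cannot be told apart from one below the calling threshold.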

Other observations

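The windows of the 6 genes held the starts of 9 neighboring genes inside hotspots, and none of these was in the Slc2a2 or Gys2 window. Of the 38 pathway genes, the windows most like those of the 6 genes, by the summed difference in the number of regions of each of the 7 combinations of lists, were found for each gene. The window of Pfkm, the muscle phosphofructokinase, matched that of Gckr exactly, with 3 regions, all of them in 3 lists (difference 0). Gys2 was nearest to Mlxip, Tpi1 and Gys1 (difference 1), and Khk to Slc2a1 and Slc2a9 (difference 2). Mlxipl was nearest to Eno1 (difference 3), and the nearest windows to that of Pklr included Sord and Gapdh (difference 3). Slc2a2 had no close counterpart, since its nearest window, Slc2a1, differed by 7. These likenesses compare counts in windows of unequal length, such as 49.7 kb for Khk and 193.9 kb for Slc2a9, and say nothing of shared control.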
